A study of Mus musculus with 60 samples.

Results

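Prefrontal cortex of Trip12 heterozygous mice raised under fluoxetine was compared with that of wild-type mice raised under the same drug, by RNA-seq of whole tissue. The comparison uses 20 of the 60 libraries in the series, chosen by their labels: 10 HT fluoxetine libraries (5 female, 5 male) and 10 WT fluoxetine libraries (5 female, 5 male). HT mice are labelled heterozygous for Trip12 and WT mice are the wild-type group, and both are of the C57BL/6J strain. All groups received their drug in the mother's milk between postnatal days 3 and 24, and cortex was taken on day 25. The remaining 40 libraries are HT and WT mice, female and male, that received vehicle or lithium on the same schedule. The labels do not describe the Trip12 allele, the fluoxetine dose or how many litters were used, so p-values measure the spread between these libraries.

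Trip12 encodes a ubiquitin ligase of the HECT family, which attaches ubiquitin to proteins and so marks many of them for destruction by the proteasome; it is also known for acting on proteins of DNA repair and chromatin. In people, loss of 1 copy is associated with intellectual disability and autism. Fluoxetine blocks the serotonin transporter, so that released serotonin stays longer in the extracellular space, and serotonin fibres reach the prefrontal cortex early in postnatal life.

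Library totals were alike in the 2 genotypes, at 32750000 to 36620000 reads in HT and 32650000 to 36520000 reads in WT. One library stood apart. WT fluoxetine male replicate 2 had a slope of log2 level on log2 transcript length of -0.207, where the other libraries of its group had 0.00631 to 0.0145, and results that rest on it are given with and without it. Cortical markers were present in every library: the 23 tested genes of cortical layers and projection neurons summed to 86530 to 103700 normalized counts in HT and 88170 to 105800 in WT.

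Trip12 itself (ENSMUSG00000026219, GRCm38 chr1:84721189-84840516, minus strand) was not lower in the libraries labelled HT. Normalized counts, which are reads divided by the library's size factor, ran from a lowest of 6219 through a median of 6408 to a highest of 6632 in HT, and from 4394 through 5989 to 6362 in WT. All 10 HT libraries lay above the WT mean of their sex, although the ranges overlapped. The log2 fold change of HT over WT was 0.13 ± 0.05 (SE, n = 10 each; limma adjusted p = 0.30), and 0.08 (adjusted p = 0.21) without WT fluoxetine male replicate 2, the library at 4394. Under vehicle the log2 fold change was 0.12 ± 0.04 and under lithium 0.08 ± 0.04. Over those 40 other libraries together it was 0.10 ± 0.02 (limma adjusted p = 0.023). The total Trip12 count therefore does not check the genotype labels, and every direction given here is that of the libraries labelled HT.

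No gene passed the test of HT against WT under fluoxetine. Of 17116 genes tested with limma on log2(normalized count + 1), with sex as a block, 0 had an adjusted p under 0.05 (0% of all tested), and edgeR on the recovered reads also called 0. At an unadjusted p under 0.05 there were 1926 genes (11.3% of all tested), of which 904 (5.28%) were higher and 1022 (5.97%) lower in HT. In whole tissue, fewer cells of a type and less RNA per cell cannot be told apart. The outcome depended on the tool and on how the spread was estimated: DESeq2 called 92 genes (0.538%), 41 higher and 51 lower, and limma with all 60 libraries sharing the spread called 24 (0.14%), all of them among DESeq2's 92. The count was 14 without WT fluoxetine male replicate 2, 10 without HT fluoxetine male replicate 5, 6 without HT fluoxetine female replicate 2, 4 without WT fluoxetine male replicate 5 and 2 without WT fluoxetine female replicate 2. The 10 genes of smallest p, leaving out names of the Gm and Rik kind, are therefore described as values. All 10 were called by DESeq2, 7 in the fit of 60 libraries and 6 without WT fluoxetine male replicate 2.

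Among these 10, Tra2b had the smallest p. It encodes an RNA-binding protein that promotes the inclusion of alternative exons during splicing (ENSMUSG00000022858, GRCm38 chr16:22244549-22266005). Its normalized count was 1475 to 1781 with a median of 1634 in HT, and 1798 to 2087 with a median of 1897 in WT. The highest HT library lay below the lowest WT library, so that the groups did not overlap. A gene chosen for its small p is likely to separate in this way. Tra2b had a log2 fold change of -0.24 ± 0.04 (SE, n = 10 each; limma adjusted p = 0.058), with -0.28 ± 0.05 in males and -0.19 ± 0.05 in females. Without WT fluoxetine male replicate 2 it was -0.22 (adjusted p = 0.039).

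Vill encodes a villin-like protein of the family that binds actin filaments (ENSMUSG00000038775, GRCm38 chr9:119052778-119071525). It had 159.4 to 213.1 normalized counts with a median of 189.5 in HT, and 129.5 to 165.5 with a median of 145.9 in WT. Only the ends of the ranges overlapped, since 1 HT library, a male at 159.4, lay below the highest WT value. Vill had a log2 fold change of 0.35 ± 0.06 (limma adjusted p = 0.058). Wfs1 encodes wolframin, a membrane protein of the endoplasmic reticulum that is lost in Wolfram syndrome and marks upper-layer neurons in parts of the forebrain (ENSMUSG00000039474, GRCm38 chr5:36966104-36989205). It had 3119 to 3898 normalized counts with a median of 3309 in HT, and 2327 to 3123 with a median of 2788 in WT. The lowest HT library was 4 counts below the highest WT library. For Wfs1 the log2 fold change was 0.29 ± 0.05 (limma adjusted p = 0.058).

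Cyp11a1 encodes the mitochondrial enzyme that turns cholesterol into pregnenolone, the first step of steroid synthesis (ENSMUSG00000032323, GRCm38 chr9:58006411-58027023). It had 127.2 to 188.7 normalized counts with a median of 161.1 in HT, and 87.79 to 170.6 with a median of 112.5 in WT. The WT value of 170.6 was that of male replicate 2, and the next WT library was at 131.9. For Cyp11a1 the log2 fold change was 0.46 ± 0.09 (limma adjusted p = 0.067), and 0.52 (adjusted p = 0.039) without that library. Wdr95, a WD-repeat gene, was the lowest in level of the 10: 5.934 to 16.83 normalized counts with a median of 10.3 in HT, and 15.65 to 29.67 with a median of 20.65 in WT. Its log2 fold change was -0.93 ± 0.18 (limma adjusted p = 0.067).

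The other 5 of the 10 had the same adjusted p range. Naglu, a lysosomal enzyme that breaks down heparan sulfate, had 142.3 to 173.2 normalized counts in HT and 170.7 to 222.3 in WT, with a log2 fold change of -0.30 ± 0.06 (limma adjusted p = 0.058). Tent5a, which extends poly(A) tails of messenger RNAs, had 160.5 to 205.1 in HT and 113.2 to 181.5 in WT. Its log2 fold change of 0.38 ± 0.07 (limma adjusted p = 0.067) was 0.53 ± 0.09 in males and 0.23 ± 0.09 in females. Rgs16, which speeds the shut-off of G protein signals, had 216.2 to 267.3 in HT and 163.9 to 222.5 in WT, a log2 fold change of 0.32 ± 0.06 (limma adjusted p = 0.067). Glt8d2, named for its glycosyltransferase domain, was at 0.36 ± 0.07, and Hsdl1, a hydroxysteroid dehydrogenase-like gene, at -0.21 ± 0.04 (limma adjusted p = 0.067 for each). The plot of the 10 genes by library shows the spread behind these values.

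**Figure D1:**
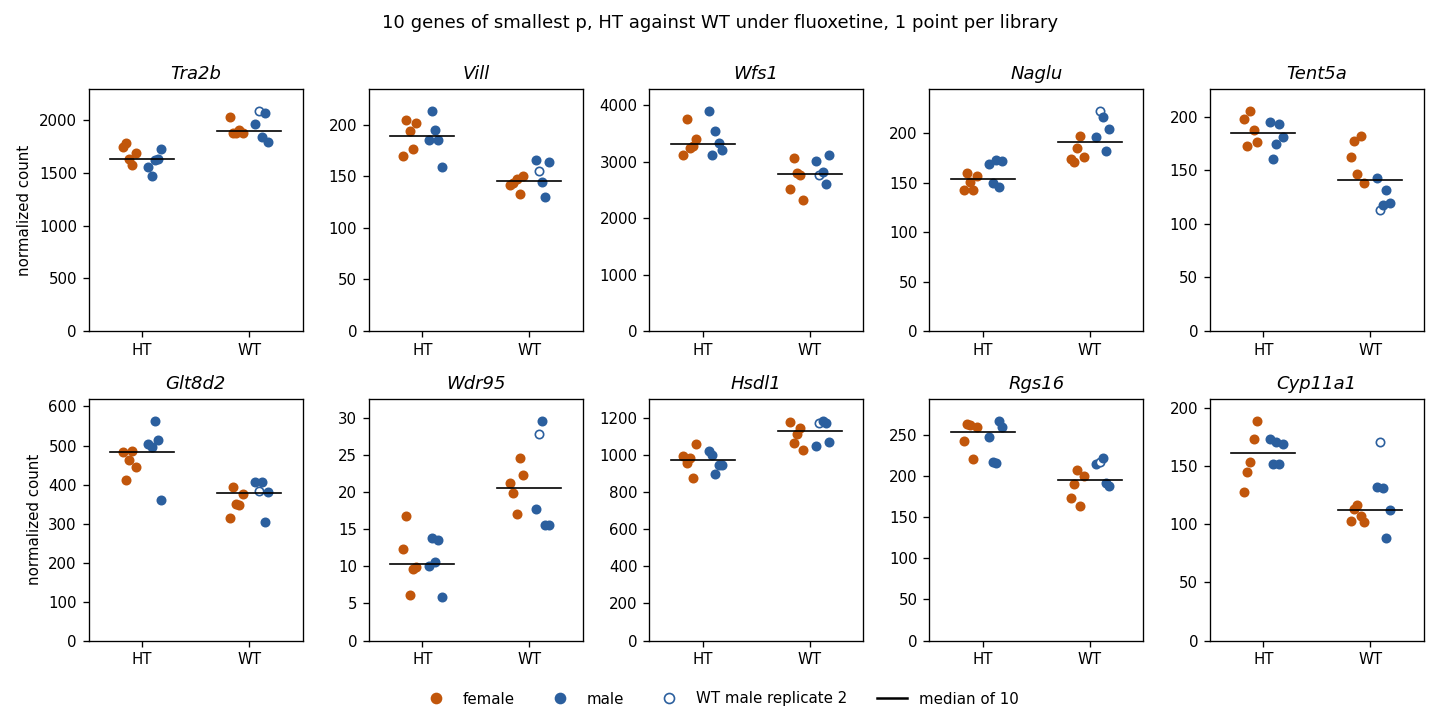
Normalized counts (y axes, from 0) of the 10 genes of smallest p in HT and WT cortex under fluoxetine, 1 point per library, females in orange, males in blue, WT male replicate 2 as an open point and lines at the median of 10 libraries. The 10 HT libraries of Tra2b, at 1475 to 1781, all sit below the 10 WT libraries, at 1798 to 2087.

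The same 10 genes were next tested in libraries that had no part in their choice, the 40 from vehicle and lithium mice. There 306 genes (1.79%) were called, 143 higher (0.835%) and 163 lower (0.952%) in HT. All 10 had the direction they had under fluoxetine, 6 at an unadjusted p under 0.05, and 5 passed limma's adjusted test. Tra2b fell by 0.17 ± 0.03 on the log2 scale (adjusted p = 0.0025) and Wdr95 by 0.48 ± 0.12 (adjusted p = 0.027). Vill rose by 0.33 ± 0.06 (adjusted p = 0.0013), Cyp11a1 by 0.31 ± 0.06 (adjusted p = 0.002) and Wfs1 by 0.28 ± 0.06 (adjusted p = 0.0071). The direction of all 10 was the same under each of the 3 treatments. Vehicle alone, where 0.169% of genes were called (0.105% higher, 0.0643% lower), and lithium alone, where 0.619% were (0.298% higher, 0.321% lower), gave for Tra2b, -0.12 ± 0.04 and -0.21 ± 0.04, for Vill, 0.37 ± 0.08 and 0.30 ± 0.08, and for Cyp11a1, 0.28 ± 0.09 and 0.35 ± 0.09.

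The other 5 genes lay closer to 0 in the vehicle and lithium libraries. Rgs16 had a log2 fold change of 0.05 ± 0.06 (limma adjusted p = 0.78) there, Hsdl1 of -0.03 ± 0.03 (0.66), Naglu of -0.07 ± 0.05 (0.58), Glt8d2 of 0.14 ± 0.07 (0.33) and Tent5a of 0.17 ± 0.07 (0.19). The test of the difference between treatments passed for none of them: for Naglu the genotype effect under fluoxetine minus that under vehicle was -0.29 ± 0.09 (limma adjusted p = 1), and for Hsdl1 the effect minus that under lithium was -0.20 ± 0.06 (adjusted p = 0.65). Of the 1926 genes at an unadjusted p under 0.05 under fluoxetine, 1517 (78.8%) had the same direction over vehicle and lithium, beside 62.1% of all tested genes, and 109 of them were called there in that direction, beside 272 of all 17116.

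**Figure D2:**
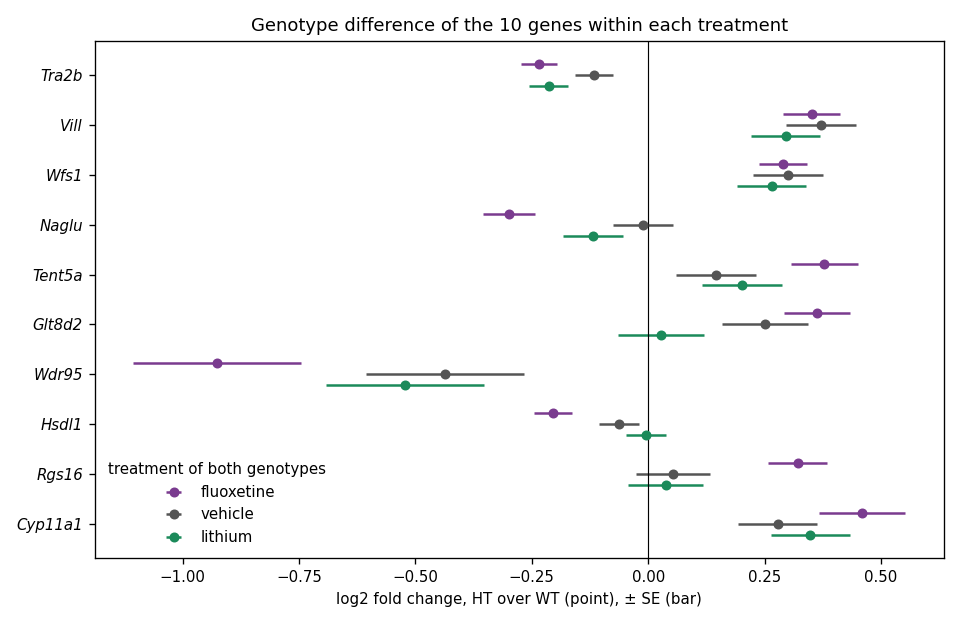
Log2 fold change of HT over WT (x axis, points, with bars of ± 1 SE) for the 10 genes under fluoxetine, vehicle and lithium. All 10 genes lie on the same side of 0 under each treatment. Rgs16 lies at 0.32 under fluoxetine, 0.05 under vehicle and 0.04 under lithium.

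The sexes were then taken apart. In males limma called 0, edgeR 0 and DESeq2 79, and 1054 genes (6.16%) were higher and 1187 (6.94%) lower at an unadjusted p under 0.05. Without WT fluoxetine male replicate 2, the male counts were 679 (3.97%) and 788 (4.6%). In females limma, edgeR and DESeq2 each called 0 genes. At an unadjusted p under 0.05 there were 753 (4.4%) in females, 413 (2.41%) higher and 340 (1.99%) lower. Without WT fluoxetine male replicate 2, which changes the shared spread, the female counts were 515 (3.01%) higher and 478 (2.79%) lower. The difference between the sexes, the effect in males minus that in females, gave 0 called genes in limma, edgeR and DESeq2, with 346 (2.02%) above and 433 (2.53%) below 0 at an unadjusted p under 0.05. Without WT fluoxetine male replicate 2 there were 283 (1.65%) above and 304 (1.78%) below. A larger number of genes in males is thus not shown to be a sex difference of any single gene.

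In males the smallest p belonged to Palmd, which encodes palmdelphin, a protein of the paralemmin family. HT males had 962.2, 884.5, 938.7, 832.7 and 825.7 normalized counts, and WT males 728.5, 682.4, 735.9, 725.8 and 671.3. All 5 HT males lay above all 5 WT males. Such a separation is likely in genes chosen for their small p, as Palmd and the next gene, Sil1, were. For Palmd it amounted to a log2 fold change of 0.32 ± 0.05 in males (SE, n = 5 each; limma adjusted p = 0.083) and 0.09 ± 0.05 in females, and over vehicle and lithium it was -0.02 ± 0.06. Sil1, a nucleotide exchange factor for the chaperone BiP, had 276.6, 280.4, 283, 305.3 and 278.9 normalized counts in HT males, and 355.8, 514.3, 361, 371.1 and 388.6 in WT males. All HT males lay below all WT males, and the highest WT value was that of replicate 2. Its log2 fold change was -0.47 ± 0.09 (limma adjusted p = 0.10), and -0.37 (adjusted p = 0.14) without that library.

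In females Rgs16 came first, with a log2 fold change of 0.42 ± 0.09 (limma adjusted p = 0.75). Zfp282, a zinc-finger gene, followed. HT females had 599.1, 604.2, 602.1, 572.6 and 600.9 normalized counts, and WT females 656.4, 738.2, 709.5, 710.1 and 699.8. The groups of females did not overlap, as is likely in a gene chosen for its small p. The log2 fold change was -0.24 ± 0.05 (limma adjusted p = 0.75). It was -0.10 ± 0.05 in males and -0.01 ± 0.03 over vehicle and lithium.

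Described list by list, 41 lists of genes gave 0 called members under fluoxetine in limma, and the 3 with the largest share of members at an unadjusted p under 0.05 in 1 direction were immediate early genes, nuclear-encoded oxidative phosphorylation and cytosolic ribosomal proteins. Members of a list share their variation between libraries, so their counts are a description.

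Immediate early genes are switched on in neurons within minutes of synaptic activity, growth factors or stress, and many encode transcription factors. All 31 tested members had a positive log2 fold change, with a median of 0.22, where the median of all tested genes was 0.00. Of the 31, 12 (38.7%) were higher at an unadjusted p under 0.05, beside 5.28% of all genes, and 0 were lower. The cAMP response element, through which the factor CREB is known to switch on many of these genes, was looked for in their promoters, from 250 bases before to 50 after the RefSeq start (GRCm38.p6). Its 5-base core CGTCA, on either strand (TGACG on the other), was in 17 of the 25 promoters found for the list (68.0%) and in 3690 of all 12301 (30.0%). The full palindrome TGACGTCA, which holds the core on each strand, was in 2 of the 25 (8.0%) and in 382 of all (3.11%). A match is only a match of letters. Promoters of 4 members described below follow, chosen because they carry the core, which is in capitals.
Fos, plus strand of chr12:85473640-85473939: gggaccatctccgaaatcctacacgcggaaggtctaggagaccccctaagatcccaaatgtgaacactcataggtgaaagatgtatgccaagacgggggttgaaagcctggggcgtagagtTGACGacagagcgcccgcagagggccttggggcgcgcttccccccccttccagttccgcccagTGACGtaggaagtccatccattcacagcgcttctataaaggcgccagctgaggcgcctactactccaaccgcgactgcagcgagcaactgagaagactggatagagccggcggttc
Nr4a1, plus strand of chr15:101266596-101266895: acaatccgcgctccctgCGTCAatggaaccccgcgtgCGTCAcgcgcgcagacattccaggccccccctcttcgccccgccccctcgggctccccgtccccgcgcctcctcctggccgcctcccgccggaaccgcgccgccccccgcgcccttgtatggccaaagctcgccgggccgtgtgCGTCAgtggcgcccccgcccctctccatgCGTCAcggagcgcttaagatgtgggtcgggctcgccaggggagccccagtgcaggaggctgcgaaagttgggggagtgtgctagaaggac
Junb, minus strand of chr8:84978699-84978998: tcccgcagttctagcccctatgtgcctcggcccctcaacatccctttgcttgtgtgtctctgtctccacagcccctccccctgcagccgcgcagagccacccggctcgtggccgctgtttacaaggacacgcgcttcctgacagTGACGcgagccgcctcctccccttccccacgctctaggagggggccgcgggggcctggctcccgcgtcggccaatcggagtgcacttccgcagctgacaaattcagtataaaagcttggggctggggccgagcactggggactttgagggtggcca
Dusp1, minus strand of chr17:26508423-26508722: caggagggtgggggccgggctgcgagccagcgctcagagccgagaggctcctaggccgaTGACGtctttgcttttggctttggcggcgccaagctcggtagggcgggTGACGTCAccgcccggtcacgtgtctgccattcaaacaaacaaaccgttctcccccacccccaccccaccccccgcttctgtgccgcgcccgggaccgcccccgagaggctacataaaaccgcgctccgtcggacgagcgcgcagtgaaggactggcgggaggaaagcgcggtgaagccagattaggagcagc
Nr4a1 holds 4 cores, Fos 2, Junb 1 and Dusp1 3, of which 2 form the palindrome.

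Arc, whose protein acts at synapses in the removal of AMPA receptors, had the largest difference of the list (GRCm38 chr15:74669083-74672570, minus strand). HT males had 9014, 2749, 2918, 3085 and 3587 normalized counts, and WT males 3110, 2985, 1516, 1387 and 1295. HT females had 4418, 4293, 5169, 3013 and 4109, and WT females 4290, 4777, 2485, 3908 and 1296. One HT male, replicate 1, was far above all others, and the groups overlapped in both sexes. Arc had a log2 fold change of 0.72 ± 0.25 over both sexes (SE, n = 10 each; limma adjusted p = 0.27), 0.996 ± 0.34 in males and 0.45 ± 0.34 in females.

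Fos, a subunit of the AP-1 transcription factor, had 1333, 780.3, 600.3, 719.8 and 729.9 normalized counts in HT males and 741.8, 586.4, 454.1, 585 and 536.9 in WT males. Females had 679.7 to 1011 in HT and 576.4 to 939.8 in WT. HT male replicate 1 was again the highest, and the groups overlapped in both sexes. Over both sexes the log2 fold change was 0.33 ± 0.13 (limma adjusted p = 0.32). Nr4a1, a nuclear receptor induced by activity, had 1897 to 3472 in HT males and 1172 to 1799 in WT males, which did not overlap, and 1617 to 2780 in HT females and 1362 to 2306 in WT females, which did. Nr4a1 had a log2 fold change of 0.40 ± 0.13 (limma adjusted p = 0.26).

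The transcription factors Junb and Egr2 had log2 fold changes of 0.40 ± 0.14 and 0.61 ± 0.21 over both sexes (limma adjusted p = 0.28 for each). Dusp1 and Dusp6, phosphatases that switch off MAP kinases, had 0.42 ± 0.15 (adjusted p = 0.28) and 0.28 ± 0.08 (adjusted p = 0.20). By sex, 13 of the 31 (41.9%) were higher at an unadjusted p under 0.05 in males, beside 6.16% of all genes, and 1 (3.23%) in females, beside 2.41%. Without HT fluoxetine male replicate 1 the male count was 7 (22.6%, beside 5.74%) and the median in males was 0.16, against 0.27 with it; the count over both sexes was then 10. The test of the sex difference put 0 of the 31 past an unadjusted p of 0.05. Without WT fluoxetine male replicate 2 it put 2 (6.45%, beside 1.65% of all genes) above 0. Under vehicle 0 of the 31 were higher, with a median of -0.02, and under lithium 5 (16.1%), with a median of 0.14, beside 4.71% and 6.88% of all genes. In those 2 comparisons 8.86% and 13.5% of all genes were past an unadjusted p of 0.05 in either direction.

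**Figure D3:**
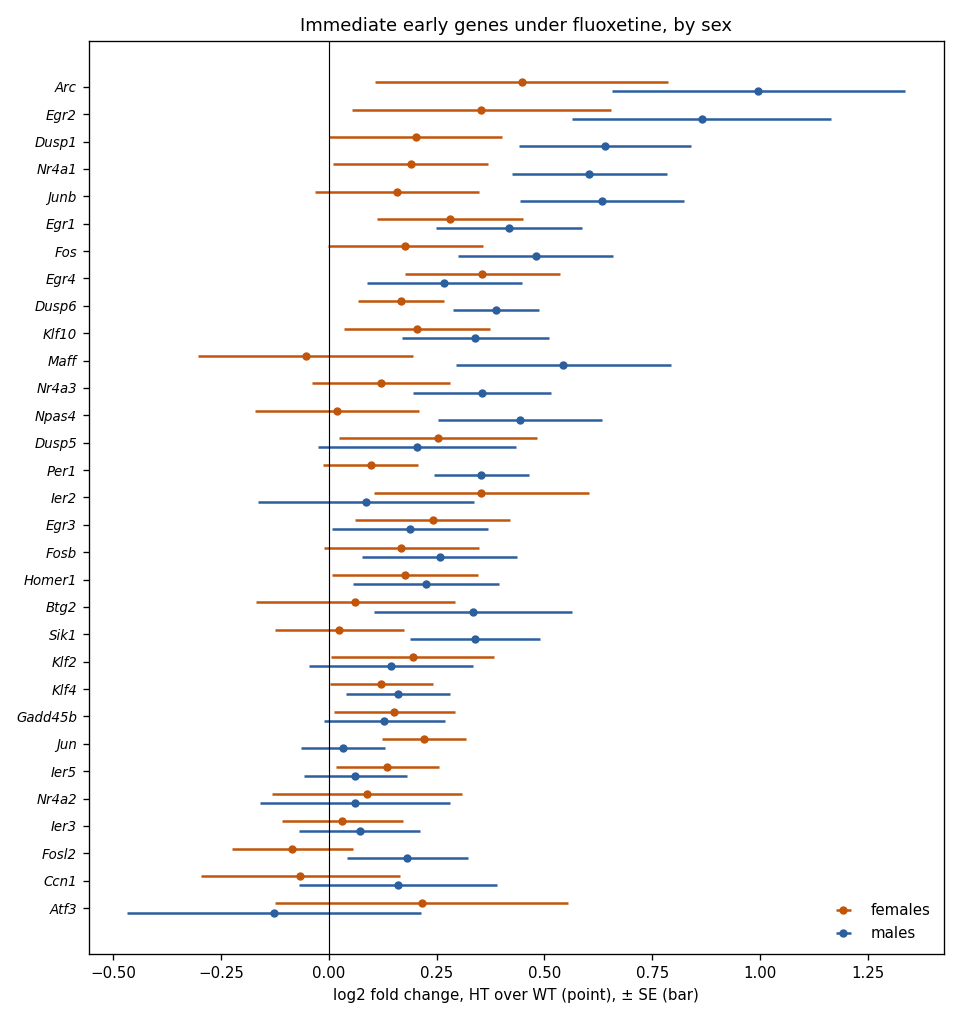
Log2 fold change of HT over WT under fluoxetine (x axis, points, with bars of ± 1 SE) for the 31 immediate early genes, males in blue and females in orange, ordered by the change over both sexes. Points are mostly above 0 in both sexes, with Arc at 0.996 in males and 0.45 in females.

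Related lists had smaller shares, to be read beside 5.28% of all genes higher and 5.97% lower. Of 27 late activity-induced effectors 4 (14.8%) were higher and 1 lower at an unadjusted p under 0.05, among them Ptgs2, a prostaglandin synthase, at 0.27 ± 0.09. Of 20 glucocorticoid-induced genes 4 (20%) were higher and 0 lower, all 20 log2 fold changes were positive and their median was 0.15; the count was 2 without HT fluoxetine male replicate 1 or 4, WT fluoxetine female replicate 5 or WT fluoxetine male replicate 3 or 4, left out singly. It was 6 without WT fluoxetine male replicate 2 and likewise without WT fluoxetine female replicate 4. Sgk1, a kinase induced by corticosterone, was at 0.18 ± 0.09, and Tsc22d3, which encodes the glucocorticoid-induced leucine zipper, at 0.17 ± 0.10. Of 19 circadian clock genes 6 (31.6%) were higher, among them Per2 at 0.23 ± 0.06, Per1 at 0.23 ± 0.08 and Bhlhe40 at 0.27 ± 0.08, and 5 (26.3%, beside 4.71%) were higher under vehicle; Per1 is also in the immediate early and the glucocorticoid lists. The labels do not give the hour at which cortex was taken.

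Genes of the respiratory chain stood on the other side. Nuclear-encoded oxidative phosphorylation comprises the subunits of complexes I to V that are made in the cytosol and imported into mitochondria. Of 75 tested, 43 (57.3%) were lower at an unadjusted p under 0.05, beside 5.97% of all genes, 0 were higher, and the median log2 fold change was -0.13. Ndufb6 of complex I had 640.2 to 848.2 normalized counts with a median of 734.4 in HT, and 743.6 to 1248 with a median of 866.3 in WT. The ranges overlapped, and its log2 fold change was -0.25 ± 0.06 (limma adjusted p = 0.16). Ndufa2, also of complex I, was at -0.28 ± 0.07 (adjusted p = 0.18). The 13 mitochondrially encoded genes, which give the remaining subunits, had 0 members past an unadjusted p of 0.05 and a median of -0.01.

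Under vehicle 4 of the 75 (5.33%) were lower, under lithium 14 (18.7%), and over both together 20 (26.7%), of which 1 was called; the shares of all genes were 4.15%, 6.65% and 7.25%.

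Cytosolic ribosomal proteins lay on the same side: 33 of 78 (42.3%) were lower and 0 higher at an unadjusted p under 0.05, with a median of -0.12. Rpl5, a protein of the large subunit that binds 5S ribosomal RNA, had 1036 to 1389 normalized counts with a median of 1138 in HT, and 1141 to 1597 with a median of 1451 in WT. Its log2 fold change was -0.28 ± 0.06 (limma adjusted p = 0.078), with -0.22 ± 0.08 in males and -0.33 ± 0.08 in females. Rpl5 was not typical of its list by sex. In the fit without WT fluoxetine male replicate 2 the list's median was -0.152 in males and -0.005 in females. In females 36 members lay above 0 and 42 below. The list's mean log2 level, relative to the 20 libraries, had a median of 0.128 in WT males. It was -0.0657 in HT males, -0.101 in HT females and -0.078 in WT females. WT fluoxetine male replicate 2, whose short transcripts were high, had the highest level of both lists, 0.514 and 0.487 above the mean of the 20 libraries on the log2 scale. Without it 35 of 75 and 22 of 78 were lower, with medians of -0.08 and -0.07, beside 5.62% of all genes. With the length and GC slopes of each library as covariates 32 and 20 were lower, with medians of -0.07 and -0.05, beside 6.19% of all genes. Many ribosomal protein genes have near-identical pseudogenes, so the authors' counting may split their reads.

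By sex, 43 of 75 oxidative phosphorylation genes (57.3%) were lower in males and 6 (8%) in females at an unadjusted p under 0.05, and 67 of 78 ribosomal protein genes (85.9%) were lower in males and 3 (3.85%) in females. The backgrounds were 6.94% in males and 1.99% in females. Without WT fluoxetine male replicate 2 the male counts were 20 (26.7%) and 39 (50%), and with the slopes as covariates 9 (12%) and 25 (32.1%), beside 4.6% and 4.25% of all genes. In females, which share the estimate of spread, 18 oxidative phosphorylation genes (24%, beside 2.79%) were lower without that library and 24 (32%, beside 3.49%) with the slopes as covariates. The median with the slopes was -0.06 in males and -0.09 in females, so the larger male count of oxidative phosphorylation genes did not hold in that fit. The test of the sex difference put 34 of 78 ribosomal protein genes (43.6%) below 0 at an unadjusted p under 0.05, beside 2.53% of all genes, and 17 (21.8%, beside 1.78%) without that library and 4 (5.13%, beside 1.58%) with the slopes as covariates; 0 passed after adjustment. For oxidative phosphorylation it put 2 of 75 (2.67%) below 0 and 0 above. With the slopes as covariates it put 0 below and 4 (5.33%, beside 1.38%) above, with a median of 0.03, against -0.09 without them.

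**Figure D4:**
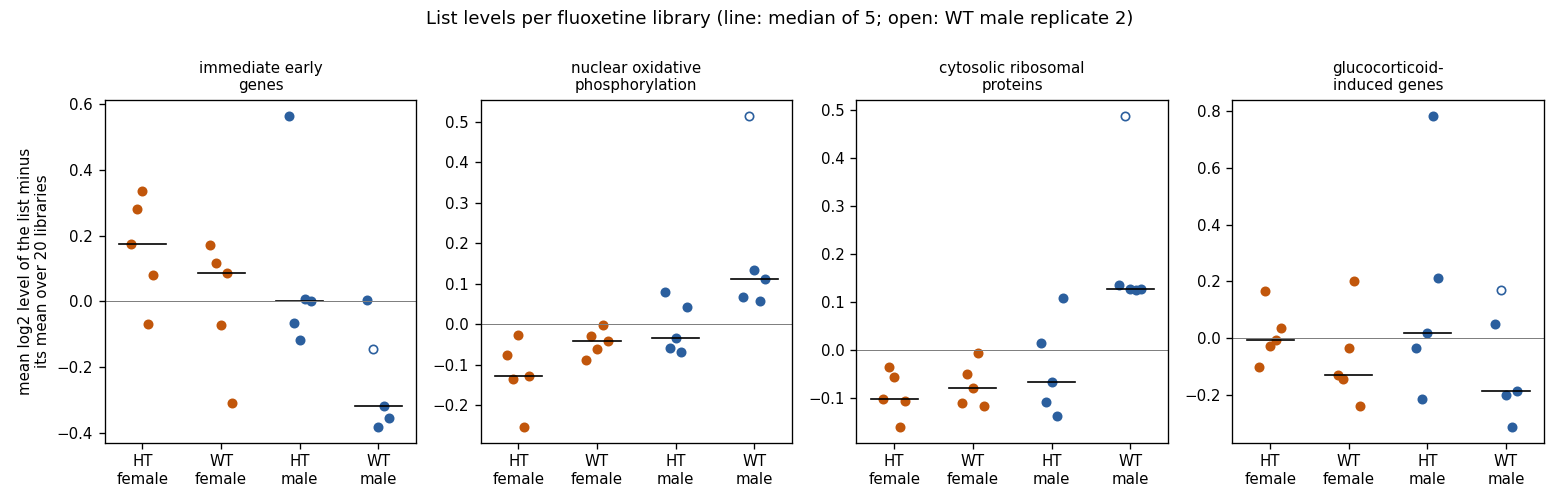
Mean log2 level of 4 gene lists in each fluoxetine library minus its mean over the 20 libraries (y axes), HT and WT of each sex side by side, with lines at the median of 5. HT male replicate 1 stands at 0.564 for immediate early genes, and WT male replicate 2, the open point, at 0.514 for oxidative phosphorylation and 0.487 for ribosomal proteins.

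The pathway of Trip12 itself was read against the shares of all genes, 5.28% higher and 5.97% lower at an unadjusted p under 0.05. Of 16 Trip12 partners and substrates 2 (12.5%) were higher and 0 lower, with a median of 0.04, and the count was 4 without HT fluoxetine female replicate 5, HT fluoxetine male replicate 1 or WT fluoxetine female replicate 1, left out singly; Ube2d1, a ubiquitin-conjugating enzyme, was at 0.15 ± 0.05. Of the 25 HECT ligases 1 was higher and 2 lower: Wwp2 was at -0.10 ± 0.04 and Ube3b at -0.06 ± 0.03. Of 31 proteasome subunits 4 (12.9%) were lower, and 3 (9.68%, beside 5.62%) without WT fluoxetine male replicate 2, 7 without HT fluoxetine female replicate 3. Among them were the catalytic subunit Psmb5 at -0.16 ± 0.05 and the core subunit Psma2 at -0.18 ± 0.06. WT male replicate 2 was the highest library for both, and without it Psmb5 and Psma2 each had a log2 fold change of -0.125 ± 0.03.

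The serotonin system, the target of the drug, had 1 of 17 members higher and 0 lower at an unadjusted p under 0.05. This share of 5.88% was near the 5.28% of all genes that were higher. The 1 member was Tph2, a gene of low count here, which encodes the enzyme that limits serotonin synthesis in neurons. HT females had 39.77, 29.45, 26.18, 36 and 26.6 normalized counts, and WT females 17.23, 15.44, 16.2, 36.12 and 27.33. HT males had 43.58, 43.35, 33.4, 32.51 and 30.52, and WT males 29.21, 36.09, 23.07, 22.6 and 27.63. HT values were the higher on average in both sexes, and the groups overlapped. Tph2 had a log2 fold change of 0.46 ± 0.15 (limma adjusted p = 0.25), and over vehicle and lithium it was -0.09 ± 0.14. The receptor gene Htr1a was at -0.12 ± 0.06 and Htr2a at -0.09 ± 0.06.

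Counts of the remaining lists at an unadjusted p under 0.05 are to be read beside 5.28% of all genes higher and 5.97% lower. The 28 genes of cholesterol synthesis and SREBP2 targets had 1 higher and 1 lower, and 32 postsynaptic scaffolds had 1 higher. Of 21 cytosolic heat shock genes 2 were higher, one of them the chaperone gene Dnajb4, with 1718 to 2271 normalized counts in HT males against 1537 to 1674 in WT males and 1798 to 2208 in HT females against 1632 to 1907 in WT females. Dnajb4 had a log2 fold change of 0.22 ± 0.05 (limma adjusted p = 0.078), and 0.12 ± 0.04 over vehicle and lithium (adjusted p = 0.13).

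**Figure D5:**
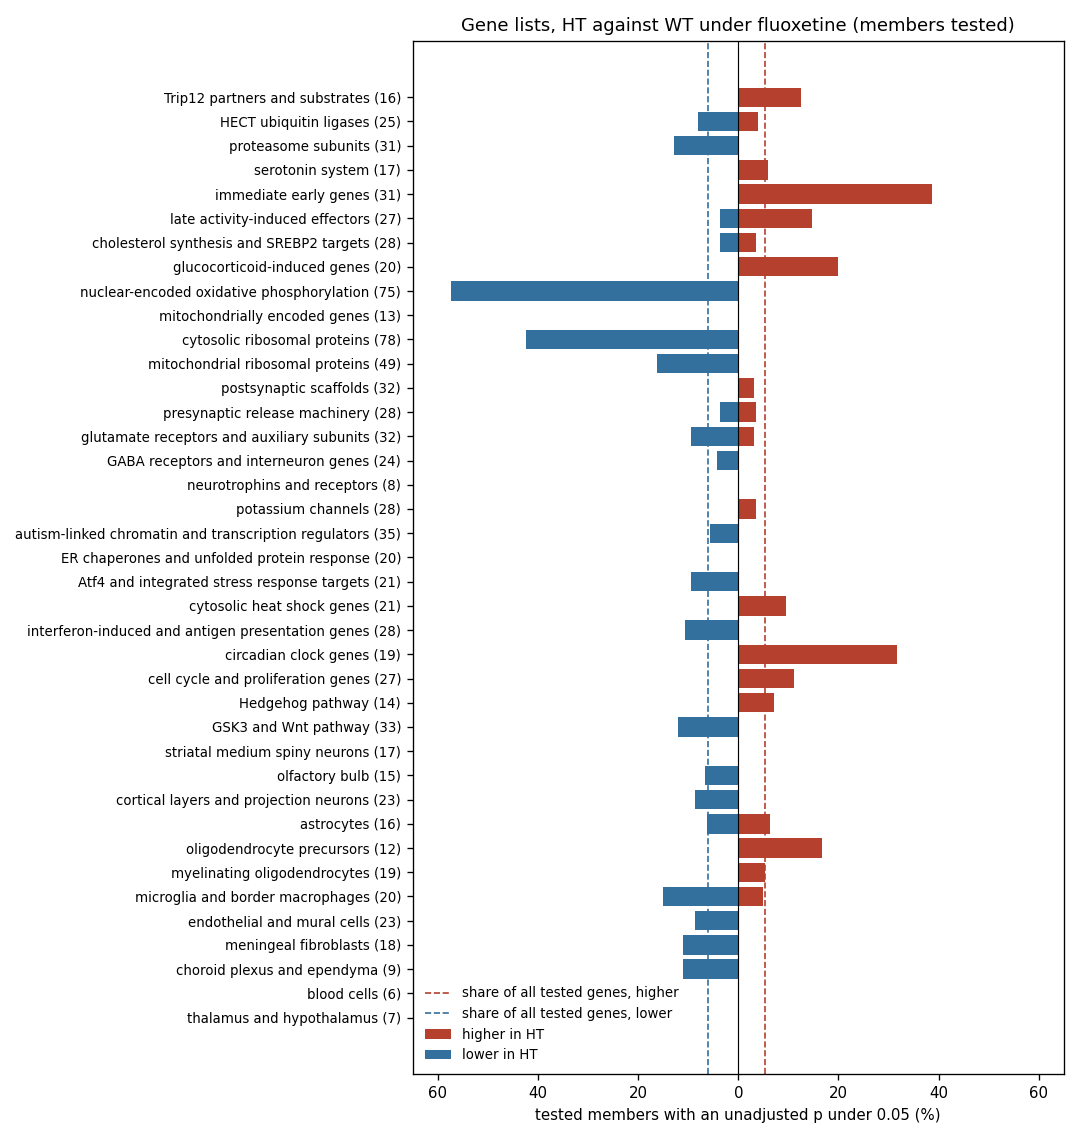
Share of the tested members of each gene list with an unadjusted p under 0.05 (x axis, %), higher in HT to the right in red and lower in HT to the left in blue, with the number tested in brackets. Dashed lines mark the shares of all tested genes, 5.28% higher and 5.97% lower; the longest bars are oxidative phosphorylation at 57.3% lower, ribosomal proteins at 42.3% lower and immediate early genes at 38.7% higher.

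Markers of other tissue in the dissection were checked beside these lists. Of 17 striatal medium spiny neuron genes 0 passed an unadjusted p of 0.05, and they summed to 12820 to 21060 normalized counts in HT and 12020 to 22260 in WT. The sexes lay on opposite sides: 15 of the 17 were below 0 in males, with a median of -0.20, and 16 were above 0 in females, with a median of 0.26, but 0 passed an unadjusted p of 0.05 in either sex or in the test of the sex difference. Under vehicle 16 of the 17 (94.1%) were higher in HT, with a median of 0.58, beside 4.71% of all genes; the genotype effect under fluoxetine minus that under vehicle was below 0 for 9 (52.9%) at an unadjusted p under 0.05, beside 2.22% of all genes. The 15 olfactory bulb genes had a median of -0.41, with 1 lower at an unadjusted p under 0.05, and sums of 15560 to 29120 in HT and 15730 to 40390 in WT. The 19 genes of myelinating oligodendrocytes had a median of 0.11, and sums of 127100 to 213200 in HT and 113800 to 195600 in WT. The part of these markers in the results above was not tested.

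The last comparison asked whether the genotype difference under fluoxetine differed from that under the other treatments. Against vehicle, limma and edgeR called 0 genes and DESeq2 1, with 4.44% of genes at an unadjusted p under 0.05, 380 above and 380 below 0 (2.22% each). That share depended on 1 vehicle library, HT vehicle male replicate 1, whose GC slope of -2.61 was the lowest of the 60 libraries. Without it limma put 556 above and 652 below, and called 0. Against lithium, limma and edgeR called 0 and DESeq2 1, with 7.1% at an unadjusted p under 0.05, 607 above and 608 below (3.55% each).

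Kcns2, a modulatory subunit of voltage-gated potassium channels, was among the 10 genes of smallest p against vehicle. Under fluoxetine it had 796.8 to 936.7 normalized counts in HT females and 807.9 to 901.8 in HT males, against 876.3 to 1095 in WT females and 863.7 to 1070 in WT males. Its log2 fold change was -0.20 ± 0.05 under fluoxetine and 0.12 ± 0.05 under vehicle, a difference of -0.32 ± 0.07 (limma adjusted p = 0.32). Against lithium the smallest p belonged to Fap, a serine protease of fibroblasts, at 0.62 ± 0.14 (limma adjusted p = 0.53). Under lithium Fap averaged 63.8 normalized counts in HT and 88.01 in WT, so the difference includes a lower HT level under lithium. Immediate early genes had 5 of 31 (16.1%) above 0 at an unadjusted p under 0.05 against vehicle, beside 2.22% of all genes, and 1 of 31 (3.23%) against lithium, beside 3.55%.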

How the data were processed

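RNA-seq of prefrontal cortex used a stranded mRNA kit, per the labels. The tools named in the submitters' processing notes are DESeq2 1.19.11, Salmon 0.11.2 and R 3.6.0, and the build is GRCm38; how strand was handled is not given in the sources used here. Judged by the steps between their values, the deposited values are a normalized-count signal: reads per gene divided by a size factor (1.08 to 1.22 here) by the authors. Reads multiplied back were whole within 0.01 for 100% of values, giving 32650000 to 36620000 reads per library.

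Of 18088 genes, 17116 reached 10 normalized counts in 5 or more of the 20 libraries and were tested with limma 3.58.1 (trend) on log2(value + 1), so fold changes of low genes are understated. Sex was a block; single-sex contrasts used 4 group means, and treatment differences 12 group means over 60 libraries. Called means a Benjamini-Hochberg adjusted p under 0.05. edgeR 4.0.16 and DESeq2 1.42.0 on the recovered reads, other pseudocounts, filters, scalings, weights, covariates and leaving out each library were alternatives, in R 4.3.3. The length and GC slopes as covariates and the test over 40 vehicle and lithium libraries were added after seeing the data. The fits were tested on simulated data. The length slope is that of log2 level, relative to the mean of the libraries, on log2 transcript length.

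Named genes were Trip12, then, since under 10 were called, the 10 of smallest p in each comparison, printed from the top, without Gm or Rik names; members of gene lists named beyond these were chosen after their values were seen. One gene that the rule names is not reported here. The comparison and the lists were chosen with earlier results of these data known. The table's IDs matched a symbol for 18077 genes.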

Additional observations from a re-analysis of the deposited data

Results flagged for a closer look

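In 132 checks of a group of 5 libraries, 14 values lay far from those of the other 4 libraries of their group, where chance gives about 1 in 20. No cause was tested for any of them. WT fluoxetine male replicate 2 had a Trip12 normalized count of 4390 (others 5730 to 6030), a Sil1 count of 514 (356 to 389), a length slope of -0.207 (0.00631 to 0.0145), and mean log2 levels of 0.514 for nuclear-encoded oxidative phosphorylation (0.0577 to 0.134) and 0.487 for cytosolic ribosomal proteins (0.124 to 0.136). HT fluoxetine male replicate 1 had a mean log2 level of 0.564 for immediate early genes, where the others had -0.116 to 0.00852. Normalized counts of single genes that stood apart were those of Tra2b in WT fluoxetine female replicate 1 at 2030, Glt8d2 at 304 and Rnf39 at 36.5 in WT fluoxetine male replicate 4, and Zfp282 in HT fluoxetine female replicate 4 at 573. Sil1 stood at 305 in HT fluoxetine male replicate 4 and at 360 in WT fluoxetine female replicate 3. Spryd4 stood at 144 in HT fluoxetine female replicate 4, below the others, and at 144 in HT fluoxetine male replicate 3, above them.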

How the results depend on the processing

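Counts of called genes that moved from 0 were these. For both sexes under fluoxetine there were 5 with a filter at 50 normalized counts, 31 with array weights, 92 with DESeq2, 22 with length and GC slopes as covariates and 24 with all 60 libraries in the fit. In males there were 4 with array weights, 79 with DESeq2 and 14 with all 60 libraries. For the difference from vehicle there were 5 with array weights and 1 with DESeq2, and for the difference from lithium 1 with DESeq2. The cause was not tested. Leaving out 1 library gave 0 to 14 for both sexes and 0 to 0 for the other 5 comparisons. The count of 5 genes called over vehicle and lithium was 5 to 5 when each of those 40 libraries was left out. No result changed direction while called. The replicate numbers do not pair the libraries: of 10 pairs 2 correlated over 0.1, from -0.24 to 0.25, and 2 of the 10 matched their own number best. The replicate block gave 0 called genes, as without it. Libraries of 32650000 to 36620000 reads gave a median SE of 0.0696 on the log2 scale over both sexes and 0.098 within a sex.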

Other observations

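No marker of another cell type was called by limma over both sexes. Of 20 genes of microglia and border macrophages 3 (15%) were lower and 1 higher in HT at an unadjusted p under 0.05, beside 5.97% and 5.28% of all genes: P2ry12, a purine receptor of resting microglia, was at -0.16 ± 0.06 (limma adjusted p = 0.34) and Cx3cr1, the fractalkine receptor, at -0.11 ± 0.05 (adjusted p = 0.39). The count lower was 1 without HT fluoxetine male replicate 4 or WT fluoxetine male replicate 5, left out singly. The mean log2 level of the microglia list, relative to the 20 libraries, had a median of 0.00148 in HT and 0.0414 in WT. In females this median was lower in HT (-0.0413 against 0.0436). Among males it was 0.00941 in HT, with a range of -0.389 to 0.0463, and -0.0352 in WT, with -0.0847 to 0.11. The list's summed normalized counts had a lower median in HT males, 14490 against 15030 in WT males. The direction in males therefore depended on the measure. Of 12 genes of oligodendrocyte precursors 2 (16.7%, beside 5.28%) were higher: Bcas1 was at 0.23 ± 0.09 and Gpr17 at 0.12 ± 0.06, both marks of cells about to myelinate. For the 12 genes as a set the direction depended on the measure and the sex. Their mean log2 level, relative to the 20 libraries, had a median of -0.0102 in HT and 0.0031 in WT. That median was 0.0644 in HT females against -0.0142 in WT females, and -0.041 in HT males against 0.0204 in WT males. Their summed normalized counts had a mean of 15570 in HT and 14810 in WT. In males 0 of 19 genes of myelinating oligodendrocytes were past an unadjusted p of 0.05, with a median log2 fold change of -0.08, and in females 5 (26.3%, beside 2.41%) were higher, with a median of 0.29. The test of the sex difference, males minus females, put 1 of the 19 below 0 at an unadjusted p under 0.05.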
